A study of Mus musculus with 13 samples.

Results

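Mouse C2C12 myoblasts, a line of skeletal muscle precursor cells, were compared between 4.5 to 6.0 h and 2.5 to 4.0 h after serum was given back. The late window held the 4 arrays labelled 4.5, 5.0, 5.5 and 6.0 h and the middle window the 4 arrays labelled 2.5, 3.0, 3.5 and 4.0 h, so 8 of the 13 arrays analysed here were compared. All 18193 genes that could be named from the non-control probe sets entered. Each gene's value was the mean log2 ratio over the probe sets that name only that gene. The question was what starts only after 4.0 h, when cells that have left quiescence come near the end of G1 phase.

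The cells had been grown in parallel flasks in 5% fetal bovine serum (FBS), held for 24 h in 0.2% FBS and then given medium with FBS again, and RNA was taken every 0.5 h. All samples came from this 1 line and carried no genetic change named in the labels. The study looked for genes that oscillate, in connection with somite formation. The other arrays, 1 at 0 h and 4 from 0.5 to 2.0 h (the early window), entered the fit as groups of their own. There was 1 array per time point, so neighbouring time points stand in for replicates. The p-values therefore rest on how far arrays of the same window lie apart, whether through technical variation or real change with time. Each gene has 1 such spread, shared over the early, middle and late windows. Fast change in the early window thus widens the SE of late minus middle and can keep a gene from being called. Nothing measures the variation between flasks of 1 time point. The values were deposited as ratios of each probe set to a reference, so they show changes and no absolute level. Levels of different genes were therefore not compared, and whether markers of muscle or of other cell types were present could not be checked. Lower RNA from every cell and fewer cells with that RNA cannot be told apart in these bulk samples.

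Growth factors carry quiescent cells through G1 phase up to the restriction point, after which they enter S phase without further need of serum. Cyclin D with CDK4 or CDK6, and then cyclin E with CDK2, phosphorylate the retinoblastoma protein and so release E2F factors, which switch on genes for DNA replication and nucleotide supply. Before S phase, the origin recognition complex, Cdc6 and Cdt1 load the Mcm helicase onto DNA, a step called licensing.

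The promoters of genes that rose only in the late window are shown first, because E2F factors bind near the start sites of many replication genes. A gene was counted as rising only late when it was called higher, when its 4 late arrays lay above all 9 earlier arrays, and when the middle and early windows differed by at most 25% of the late change. The 250 bases before the start site (RefSeq, GRCm38.p6) were searched on both strands for the E2F spellings TTTCCCGC, TTTGGCGC, TTTGGCGG and TTTCGCGC. The lines below give the 4 largest of these rises whose promoter held a spelling, 5′ to 3′ on the gene's strand, with the matches in capitals (overlapping matches run together). Cdc6, a licensing factor, lies at chr11:98907901-98908150 on the plus strand. Casp8ap2, which codes for a caspase 8 associated protein, lies at chr4:32615220-32615469 on the plus strand. The helicase subunits Mcm5 and Mcm6 lie at chr8:75109259-75109508 on the plus strand and chr1:128359706-128359955 on the minus strand.
Cdc6: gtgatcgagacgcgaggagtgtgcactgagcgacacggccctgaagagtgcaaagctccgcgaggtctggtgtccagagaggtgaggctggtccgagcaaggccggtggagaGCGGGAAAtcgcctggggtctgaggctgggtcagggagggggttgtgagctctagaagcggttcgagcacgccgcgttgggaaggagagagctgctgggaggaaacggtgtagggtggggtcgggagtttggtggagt
Casp8ap2: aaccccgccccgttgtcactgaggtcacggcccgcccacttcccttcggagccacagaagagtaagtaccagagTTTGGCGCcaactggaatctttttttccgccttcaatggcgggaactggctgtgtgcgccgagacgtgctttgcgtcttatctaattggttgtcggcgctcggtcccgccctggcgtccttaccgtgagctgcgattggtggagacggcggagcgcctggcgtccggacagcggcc
Mcm5: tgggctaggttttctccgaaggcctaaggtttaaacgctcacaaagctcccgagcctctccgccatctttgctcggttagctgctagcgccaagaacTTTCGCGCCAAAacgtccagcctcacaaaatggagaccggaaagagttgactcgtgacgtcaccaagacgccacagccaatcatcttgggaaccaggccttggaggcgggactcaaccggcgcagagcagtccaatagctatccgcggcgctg
Mcm6: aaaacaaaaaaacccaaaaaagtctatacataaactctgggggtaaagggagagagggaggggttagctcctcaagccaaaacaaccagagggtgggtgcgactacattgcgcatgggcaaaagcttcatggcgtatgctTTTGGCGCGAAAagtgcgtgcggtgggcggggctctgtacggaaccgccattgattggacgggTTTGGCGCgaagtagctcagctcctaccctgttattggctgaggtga
The match in Cdc6 began 138 bases before the start site and that in Casp8ap2 began 176 bases before it. Mcm5 held 2 overlapping matches, and Mcm6 held 2 overlapping matches and a separate match that began 47 bases before the start. Zfp367 and Mcm7 also rose only late and held a match. These are matches of letters, not measured binding.

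Over all genes, 2240 of 18193 (12.3%) passed at an adjusted p under 0.05 (limma, Benjamini-Hochberg, two-sided). Of these, 1866 were higher (10.3% of genes) and 374 lower (2.06%) in the late window. Changes were small: the median log2 difference was 0.32 among the genes called higher and -0.28 among those called lower, against 0.02 over all genes. Only 8 called genes reached an absolute log2 difference of 1, 6 of them higher and 2 lower. The late and middle arrays did not overlap in 1717 of the 1866 genes called higher and 293 of the 374 called lower. Over all genes, 2827 had all late arrays above the middle ones and 722 below. The rules for late starts and for the largest changes require this, so it is no separate support there. The excess of rises depended in part on scaling, since 83.3% of the calls were higher as deposited, 68.6% with each array centred on its median and 62.9% after quantile normalization. A straight line in time added to the windows left 0 calls (limma, adjusted p under 0.05; 1723 genes at an unadjusted p under 0.05). A step at 4.0 h and a steady drift therefore cannot be told apart by this fit. Leaving out the 6.0 h array left 1105 calls, leaving out 5.5 h left 1277 and leaving out 2.5 h left 1400.

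The middle arrays differed from both neighbours in many genes. Of the genes called higher, 527 (2.9% of genes) had all 4 middle arrays below all 4 early and all 4 late arrays, and of the genes called lower, 142 (0.781%) had them above. The median ratio of those 527 genes went from 1.00 at 2.0 h to 0.833 at 2.5 h, stayed at 0.837, 0.834 and 0.843, and was 0.990 at 4.5 h. Array controls differed between the middle and late windows too, but the middle window did not always stand apart from the early one. The poly-A control transcripts, which by their design are added to the RNA, had geometric mean ratios of 0.919, 0.817, 0.883 and 1.05 in the middle window. In the late window they were at 1.04, 1.09, 1.27 and 1.18, and 23 of 24 such probe sets were higher late. From 0.5 to 2.0 h these means had been 0.923, 0.972, 1.08 and 0.949, which overlaps the middle window. The 3 probe sets of 18S ribosomal RNA were higher late by 0.45 to 1.67 on the log2 scale, and those of beta-actin and Gapdh by 0.06 to 0.18. The 18S means were 0.889, 0.679 and 0.901 in the early window and 0.992, 0.831 and 0.860 in the middle window. In the late window they were 1.35, 2.64 and 1.25, the highest of each probe set. The part of these differences in the results was not tested, and the labels name no batch.

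**Figure D1:**
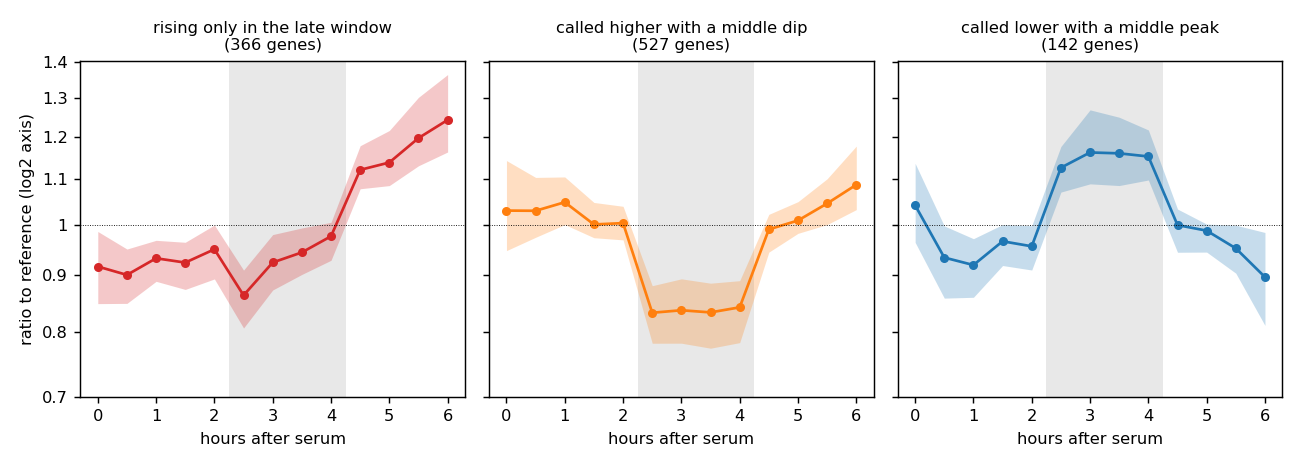
Median deposited ratio (line and points, log2 axis) and the range from the lower to the upper quartile (band) at each hour after serum, for 366 genes rising only in the late window, 527 called higher with a middle dip and 142 called lower with a middle peak; the middle window is grey. The genes were sorted by these values, so the shapes are a description. The first group goes from a median of 0.864 at 2.5 h to 0.976 at 4.0 h, 1.12 at 4.5 h and 1.24 at 6.0 h.

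The rule for a late start picked out 366 genes (2.01% of genes), and 17 genes (0.0934%) fell only late. Of the 366, 25 belonged to the lists of G1 and S phase genes and 44 to any of the 41 gene lists described here. The 6.0 h array was the highest of all 13 in 216 of them, against 856 of all 1866 genes called higher. In 177 of them the 4.0 h array was already the highest of the middle window, against 758 of the 1866. The median change of these genes was 0.14 on the log2 scale from 4.5 to 6.0 h, against 0.01 over all genes. From 4.0 to 4.5 h it was 0.21, against 0.04, but the rule itself sets the 4.5 h array above the 4.0 h array. A rise already ran from 2.5 to 4.0 h, with a median of 0.17 and 305 of the 366 higher (all genes 0.02 and 54.7%). From 2.0 to 2.5 h the median change was -0.14, against -0.05 over all genes. The count of late starters moved to 227 without the 6.0 h array and to 218 without the 2.5 h array.

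DNA replication genes were higher in the late window. Over 4 lists (licensing, the replication fork, cyclins and E2F, and pyrimidine nucleotides), 69 of 104 measured genes were called higher and 0 lower, against 10.3% and 2.06% of all genes. Their median late minus middle difference was 0.33, against 0.02 over all genes. In 55 of the 69 the 6.0 h array was the highest of the course, against 856 of the 1866 genes called higher over all genes. The rise also ran inside the windows: 88 of the 104 were higher at 6.0 than at 4.5 h (median difference 0.24) and 81 were higher at 4.0 than at 2.5 h (median 0.17), against 53.6% and 54.7% of all genes. These inner changes were computed after the window values were seen. Across all settings but the straight line, 52 to 71 of the 104 were called higher and 0 lower. With the line, 0 were called (limma) and the median step was 0.18.

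Cdc6, which helps load the Mcm helicase at origins, had the largest rise of all called genes. Its ratios were 0.675, 0.841, 1.00 and 1.27 at 2.5, 3.0, 3.5 and 4.0 h, and 1.83, 2.32, 3.00 and 3.97 at 4.5, 5.0, 5.5 and 6.0 h. Each array from 3.0 h on was above the one before it, and the earlier arrays from 0 to 2.0 h lay between 0.738 and 0.962. The difference was 1.53 ± 0.21 (log2 ± SE, limma adjusted p = 0.00153), or 2.90-fold. The upward course thus began inside the middle window.

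Ccne2 codes for cyclin E2, an activator of CDK2 at the border of G1 and S phase. Its ratios were 0.508, 0.673, 0.831 and 1.03 in the middle window and 1.54, 1.69, 2.29 and 2.97 in the late window. It too climbed on each array from 3.0 h on, after an earlier high of 1.00 at 1.0 h. The rise was 1.48 ± 0.21 (limma adjusted p = 0.00162). Both Cdc6 and Ccne2 kept their calls in every setting but the straight line, where the steps were 0.68 ± 0.26 and 0.61 ± 0.26 (limma adjusted p = 0.458 and 0.505).

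**Figure D2:**
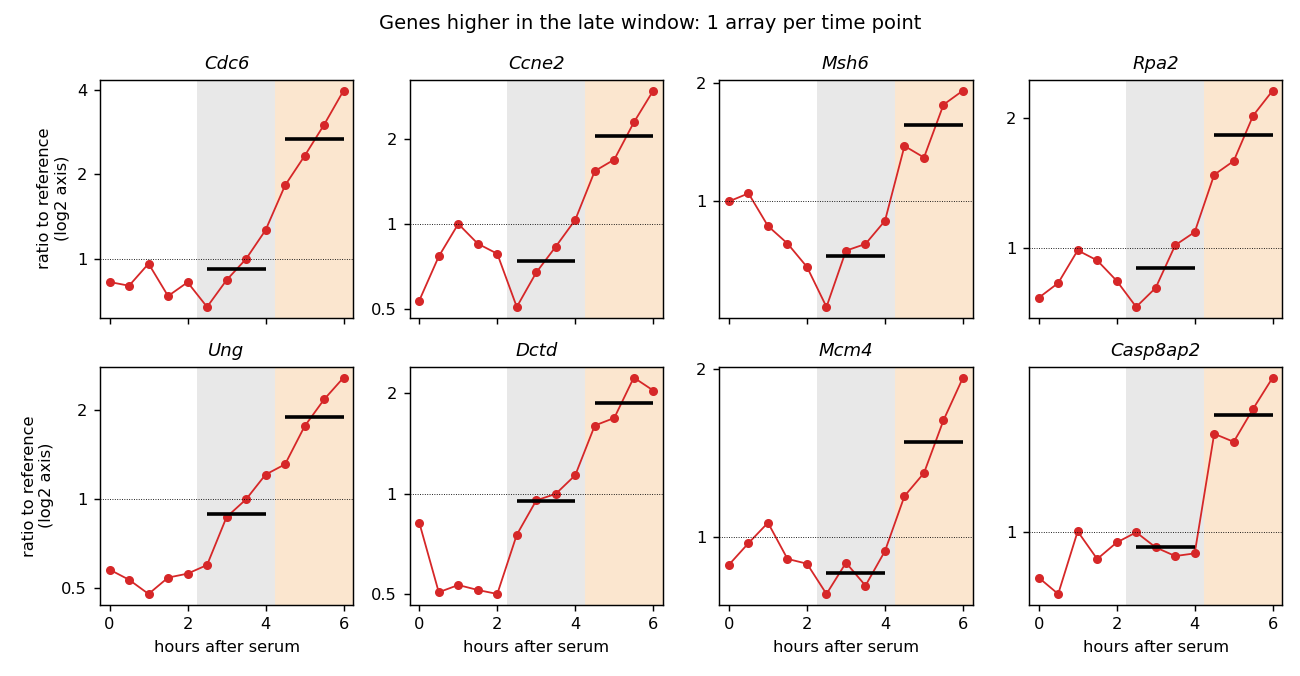
Deposited ratio of 8 genes called higher (log2 axis, a scale of its own in each panel) against hours after serum, 1 array per point; grey marks the middle and orange the late window, and black bars are the geometric means of the windows. Cdc6 goes from a middle mean of 0.921 to a late mean of 2.67, while Casp8ap2 lies between 0.907 and 1.00 in the middle window and is 1.50 at 4.5 h.

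Of 25 measured licensing genes, 18 rose, 0 fell and 10 rose only late, with a median difference of 0.33. Mcm4, a subunit of the replicative helicase, had ratios of 0.788, 0.897, 0.816 and 0.942 in the middle window and 1.18, 1.30, 1.62 and 1.93 in the late window. The difference was 0.79 ± 0.12 (limma adjusted p = 0.00224). All 6 helicase subunits, Mcm2 to Mcm7, were called, with differences from 0.59 (Mcm7) to 0.79 (Mcm4). The Mcm3 call was lost with 1 probe set per gene, and its 5 probe sets ranged from 0.16 to 1.13. The 3 probe sets of Mcm5 ranged from 0.06 to 0.93. Gmnn codes for geminin, which blocks a second round of licensing by binding Cdt1. Its ratios were 0.592, 0.606, 0.604 and 0.827 in the middle window and 0.863, 1.04, 1.12 and 1.82 in the late window, so the last array of each window was the highest. Its rise of 0.84 ± 0.18 (limma adjusted p = 0.00937) came after an early mean of 0.941. Cdt1 rose by 0.60 ± 0.10 and the kinase gene Cdc7, which fires licensed origins, by 0.49 ± 0.09. The origin recognition subunits were uneven: Orc5, Orc2 and Orc4 rose, while Orc1 (0.09 ± 0.07), Orc3 (0.06 ± 0.05) and Orc6 (0.29 ± 0.11) did not pass.

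Replication fork genes held the highest share of calls among the 41 lists, 26 of 30 higher and 0 lower, with a median of 0.47. All 30 were higher at 6.0 than at 4.5 h, against 53.6% of all genes. The dip of the middle arrays was seen in 9 of the 26, and in 527 of all 1866 genes called higher. Msh6, a mismatch repair protein, had ratios of 0.540, 0.750, 0.780 and 0.893 and then 1.38, 1.29, 1.76 and 1.91. It rose by 1.10 ± 0.16 (limma adjusted p = 0.00184), and its low point at 2.5 h came after a decline from 1.05 at 0.5 h. Rpa2, a subunit of the protein that coats single-stranded DNA, went from 0.729, 0.807, 1.01 and 1.09 to 1.48, 1.59, 2.03 and 2.32. The rise was 1.02 ± 0.14 (limma adjusted p = 0.00161), and its 2 probe sets gave 0.96 and 1.08. Ung removes uracil from DNA. It did not count as a late starter, since its middle mean of 0.892 lay well above its early mean of 0.529 (middle minus early 0.75). Its ratio was 0.600 at 2.5 h and 1.21 at 4.0 h before reaching 1.31, 1.76, 2.17 and 2.58. The rise was 1.09 ± 0.20 (limma adjusted p = 0.00464). Timeless, part of the fork protection complex, rose by 0.84 ± 0.15, and Uhrf1, which recruits the maintenance DNA methyltransferase, by 0.85 ± 0.15 with a middle dip. Pcna, the sliding clamp, rose by 0.40 ± 0.08. The primase and polymerase alpha subunits Pola2 (0.06 ± 0.07), Prim2 (0.18 ± 0.06) and Pola1 (0.23 ± 0.08) did not pass.

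Among the nucleotide enzymes, 13 of 17 genes of the pyrimidine list and 8 of 12 of the purine list were called higher and 0 lower in both. The first count was 8 without the 6.0 h array and 8 without the 2.5 h array, and the second was 5 with the 4.5 h array counted as middle. Dctd makes dUMP for thymidylate synthesis. Its ratios were 0.754, 0.956, 1.00 and 1.14 and then 1.60, 1.69, 2.23 and 2.04, a rise of 0.98 ± 0.12 (limma adjusted p = 8.44e-04) on top of an earlier one, as the early mean was 0.514. Dhodh, the mitochondrial enzyme of pyrimidine synthesis, rose only late, from 0.799, 0.842, 0.918 and 1.04 to 1.45, 1.33, 1.55 and 1.58 (0.72 ± 0.08, limma adjusted p = 6.61e-04). Its step between 4.0 and 4.5 h exceeded any change inside the late window. Dck, a salvage kinase, rose by 0.76 ± 0.12 after a middle dip, and the ribonucleotide reductase subunits Rrm2 and Rrm1 rose by 0.41 ± 0.08 and 0.19 ± 0.05. Thymidylate synthase, Tyms, stayed between 0.969 and 1.08 on the 8 arrays (-0.003 ± 0.06). In purine synthesis, Adsl and Pfas rose by 0.66 ± 0.11 and 0.59 ± 0.09.

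The regulators moved less as a list, with 12 of 32 higher, 0 lower and a median of 0.21 (7 higher with 1 probe set per gene). The repressor E2f7 was next to Ccne2 in size, at 0.73 ± 0.12 (limma adjusted p = 0.00249), from 0.685, 0.694, 0.704 and 0.837 to 0.983, 1.14, 1.33 and 1.41. The activator E2f1 rose by 0.25 ± 0.07 and its partner Tfdp1 by 0.40 ± 0.07. Ccne1 (cyclin E1) rose by 0.29 ± 0.07, a much smaller value than that of Ccne2. The cyclin D genes Ccnd1 and Ccnd2 rose by 0.47 ± 0.10 and 0.43 ± 0.08, and both had been climbing since the early window. The call of Ccnd1 was lost with the 4.5 h array counted as middle and with 1 probe set per gene (highest limma adjusted p over the settings but the line 0.0953). Skp2, which targets the CDK inhibitor p27 for destruction, rose by 0.44 ± 0.09, and its call was lost in the same settings as that of Ccnd1. Cdkn1b, the p27 gene itself, was at 0.25 ± 0.15 and Cdkn1a at 0.07 ± 0.07, and neither passed. Ccna2, which codes for cyclin A2 of S and G2 phase, was at -0.03 ± 0.09 with late ratios of 0.921, 0.917, 0.934 and 0.995.

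Of 24 genes of mitosis, 0 were called higher and 1 lower, Ccnb2 (cyclin B2), at -0.31 ± 0.08 (limma adjusted p = 0.0284). That call was lost without the 5.5, 6.0, 2.5, 3.0 or 3.5 h array (highest adjusted p over the settings 0.0969). At an unadjusted p under 0.05 limma counted 6 of the 24. Of the 4 histone genes with a value 0 passed (limma; 2 at an unadjusted p under 0.05).

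**Figure D3:**
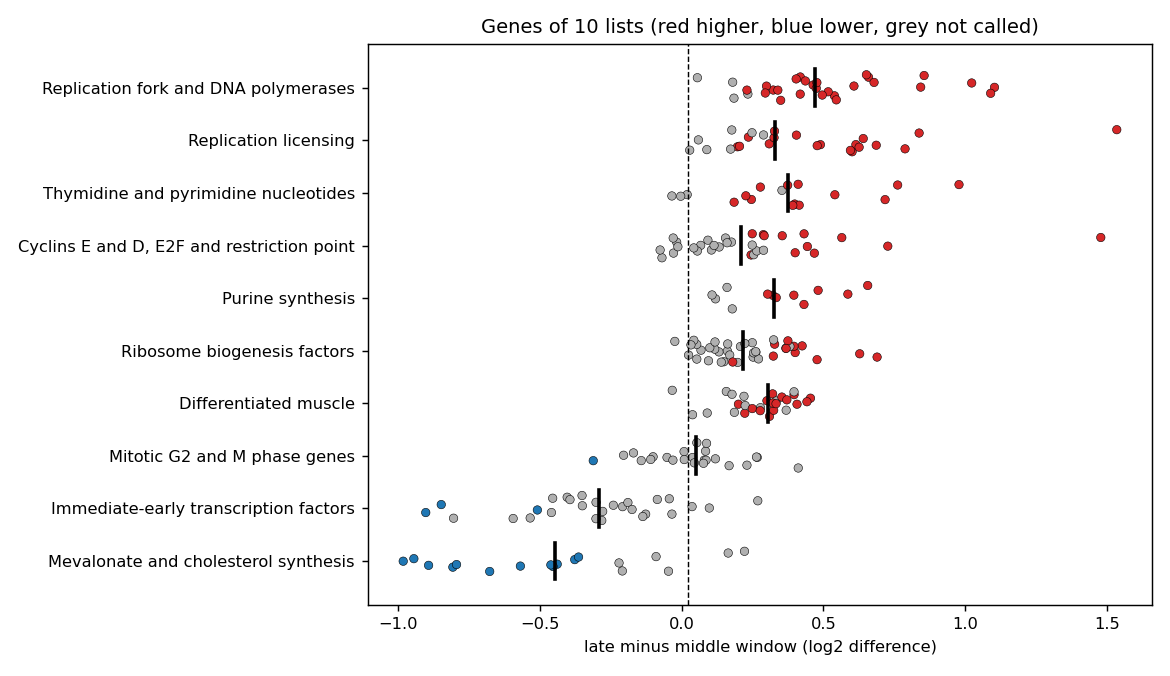
Late minus middle difference (log2) of each measured gene in 10 lists; red points were called higher, blue lower and grey neither, the black bar is the list's median and the dashed line the median of all genes, 0.02. Replication lists lie to the right with medians from 0.21 to 0.47, and mevalonate and cholesterol synthesis lies to the left at -0.45.

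The E2F spellings were more frequent in promoters of the replication lists than in all promoters, whether or not the gene had been called. A promoter was available for 14452 of the tested genes, and 3.36% of these held a spelling. The share was 6.62% among genes called higher, 2.83% among genes called lower and 6.92% among those rising only late. In the 4 G1 and S phase lists it was 25% of the called genes (14 of 56) and 24.1% of those not called (7 of 29). Genes with a middle dip had 6.86%, close to the late starters.

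Late starters outside the replication lists included Casp8ap2. Its ratios were 1.00, 0.940, 0.907 and 0.917 in the middle window and 1.50, 1.45, 1.66 and 1.89 in the late window, a rise of 0.78 ± 0.09 (limma adjusted p = 6.88e-04). The middle arrays showed no climb before 4.5 h. Gemin2, an assembly factor of spliceosomal particles, rose by 0.89 ± 0.11 (limma adjusted p = 8.44e-04), with middle ratios of 0.750 to 0.929 and late ratios of 1.40 to 1.85. The remaining named genes of this group were the granzyme gene Gzmd (0.84 ± 0.15), the exporter Abcc4 (0.79 ± 0.11), the mitochondrial tyrosyl-tRNA synthetase Yars2 (0.78 ± 0.12) and the zinc importer Slc39a10 (0.77 ± 0.14). All 6 kept their calls in every setting but the straight line.

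Several of the largest differences belonged to genes that dipped on the middle arrays, so that late and early arrays lay closer together. Plscr2, a scramblase gene, had the smallest adjusted p of the named genes, 2.26e-04 by limma. Its ratios were 0.611, 0.683, 0.708 and 0.798 and then 1.29, 1.43, 1.36 and 1.73, a difference of 1.05 ± 0.10, against an early mean of 0.973. Nr2f1, an orphan nuclear receptor gene, went from 0.546, 0.439, 0.593 and 0.574 to 0.880, 1.02, 1.00 and 1.35 (0.97 ± 0.16, limma adjusted p = 0.00298), but its late minus early value was -0.04. Ninl (0.98 ± 0.15) and the interferon-induced Ifit2 (0.91 ± 0.14) also dipped, with late minus early values of -0.03 and 0.19. Ppip5k2, an inositol pyrophosphate kinase gene, had 0.95 ± 0.11 and 0.34. The opposite shape was that of Zfy2, at 1.39, 1.65, 1.71 and 1.83 in the middle window and 1.34, 1.00, 0.825 and 0.492 in the late one (-0.93 ± 0.21, limma adjusted p = 0.0126; late minus early 0.04). Of these genes Plscr2 had all its late arrays above all the earlier ones as well.

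In lists of growth and translation a smaller share was called. From here to the nuclear pore and transport list, the shares called higher ran from 27.5% (ribosome biogenesis) to 47.4% (heat shock and chaperonin). Of all genes 10.3% were called higher and 2.06% lower. Of 40 ribosome biogenesis factors, 11 rose and 0 fell (median 0.22). The list's median middle minus early difference was 0.42, and 1 of the 40 rose only late. From 4.5 to 6.0 h 16 of the 40 went up (53.6% of all genes), and from 4.0 to 4.5 h 39 of the 40 (60.5% of all genes). Dkc1, the pseudouridine synthase of ribosomal RNA, had ratios of 0.682, 0.940, 0.980 and 1.08 and then 1.45, 1.46, 1.43 and 1.51, a plateau in the late window (0.69 ± 0.15, limma adjusted p = 0.0102; lost with the 4.5 h array counted as middle and with 1 probe set per gene). Nhp2 rose by 0.63 ± 0.14, fibrillarin (Fbl) by 0.48 ± 0.08 and nucleolin (Ncl) by 0.42 ± 0.07 (5 probe sets from 0.02 to 0.84). The count was 18 when only the 8 arrays were fitted, 5 with the 4.5 h array counted as middle and 7 without the 2.5 h array.

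Of 23 genes of RNA polymerase I and III, 7 rose and 0 fell, Polr3g most (0.58 ± 0.13). With the 4.5 h array counted as middle 0 passed, and without the 5.5 or the 2.5 h array 3 did, without 6.0 h 4 (limma, adjusted p under 0.05). Among aminoacyl-tRNA synthetases 8 of 18 rose (median 0.28), led by Vars (0.52 ± 0.07), and 13 with only the 8 arrays in the fit. All 18 were higher at 4.5 than at 4.0 h, against 60.5% of all genes. The amino acid response list, targets of the factor ATF4, had 8 of 29 called higher and 0 lower. The serine synthesis genes Psph (0.58 ± 0.14), Psat1 (0.55 ± 0.10) and Phgdh (0.49 ± 0.12) stood among them, next to asparagine synthetase, Asns (0.60 ± 0.18, limma adjusted p = 0.0425). The count was 2 without the 6.0 or the 2.5 h array, 4 without 5.5 h, and 5 without 4.5, 5.0 or 3.5 h. The call of Asns was lost whenever 1 of the 8 arrays was left out, that of Phgdh without 5.5, 6.0 or 2.5 h, and that of Psph without 6.0 or 2.5 h.

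Cytosolic ribosomal protein genes were called higher in 8 of 28 cases, with small differences (median 0.15; Rpl14 at 0.39 ± 0.11). The count was 3 without the 6.0 h array, 4 without 5.0 h, 4 without 2.5 h and 3 without 3.5 h, and the call of Rpl14 was lost without 6.0, 2.5, 3.0 or 3.5 h. Mitochondrial ribosomal proteins had 12 of 29 higher, Mrpl18 most (0.68 ± 0.11), and 6 without the 6.0 h array, 5 without 2.5 h. In the heat shock and chaperonin list 9 of 19 rose, among them Cct7 (0.41 ± 0.07) and Cct5 (0.32 ± 0.07) of the TRiC chaperonin that folds actin and tubulin, and Hspd1 (0.40 ± 0.08) of mitochondria (4 of 19 with 1 probe set per gene). Nuclear pore and transport genes had 12 of 26 higher, with Nup43 (0.56 ± 0.09) and Nup85 (0.51 ± 0.07) both rising only late (6 of 26 with the 4.5 h array counted as middle). None of these 4 lists had a gene called lower.

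Genes of differentiated muscle were called higher in 16 of 28 cases and lower in 0, against 10.3% and 2.06% of all genes. Their median was 0.31. The count was 3 without the 6.0 h array, 5 without 5.5 h, 10 without 5.0 h, 4 without 2.5 h and 8 without 3.0 h (19 without 4.0 h). Myh3, the embryonic myosin heavy chain, had ratios of 0.874, 0.793, 0.844 and 0.911 and then 1.01, 1.09, 1.18 and 1.26 (0.41 ± 0.08, limma adjusted p = 0.00683). Its windows did not overlap, but its early ratios, from 0.831 to 1.04, reached into both. Mef2c, a muscle transcription factor, rose by 0.40 ± 0.07, lost with 1 probe set per gene (its 5 probe sets ranged from 0.10 to 1.00). Myog, which drives terminal differentiation, was at 0.25 ± 0.07 and Ckm at 0.16 ± 0.07, and the latter did not pass. Of 12 myoblast markers 2 were called, Myf5 (0.53 ± 0.12, with a middle dip) and Six4 (0.40 ± 0.11), and Myod1 was at -0.15 ± 0.10. The Myf5 call was lost without the 6.0 h array (highest adjusted p over the settings 0.0713) and that of Six4 without the 5.0, 5.5, 6.0, 4.0 or 3.5 h array.

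Few markers of other cell types were called. Of 7 fibroblast markers and 14 blood and endothelial markers 0 passed (limma; 0 and 1 at an unadjusted p under 0.05). Their values ran from -0.14 for Dpt to 0.22 for Pdgfrb and from -0.15 for Lyz2 to 0.18 for Tyrobp. Of 7 adipocyte and osteoblast markers 1 was called, Alpl, an alkaline phosphatase, at -0.40 ± 0.06, lost with the 4.5 h array counted as middle. Among 7 housekeeping genes Gusb (0.34 ± 0.06) and Tbp (0.15 ± 0.05) were called higher, and Tbp lost its call whenever 1 of the 8 arrays was left out.

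**Figure D4:**
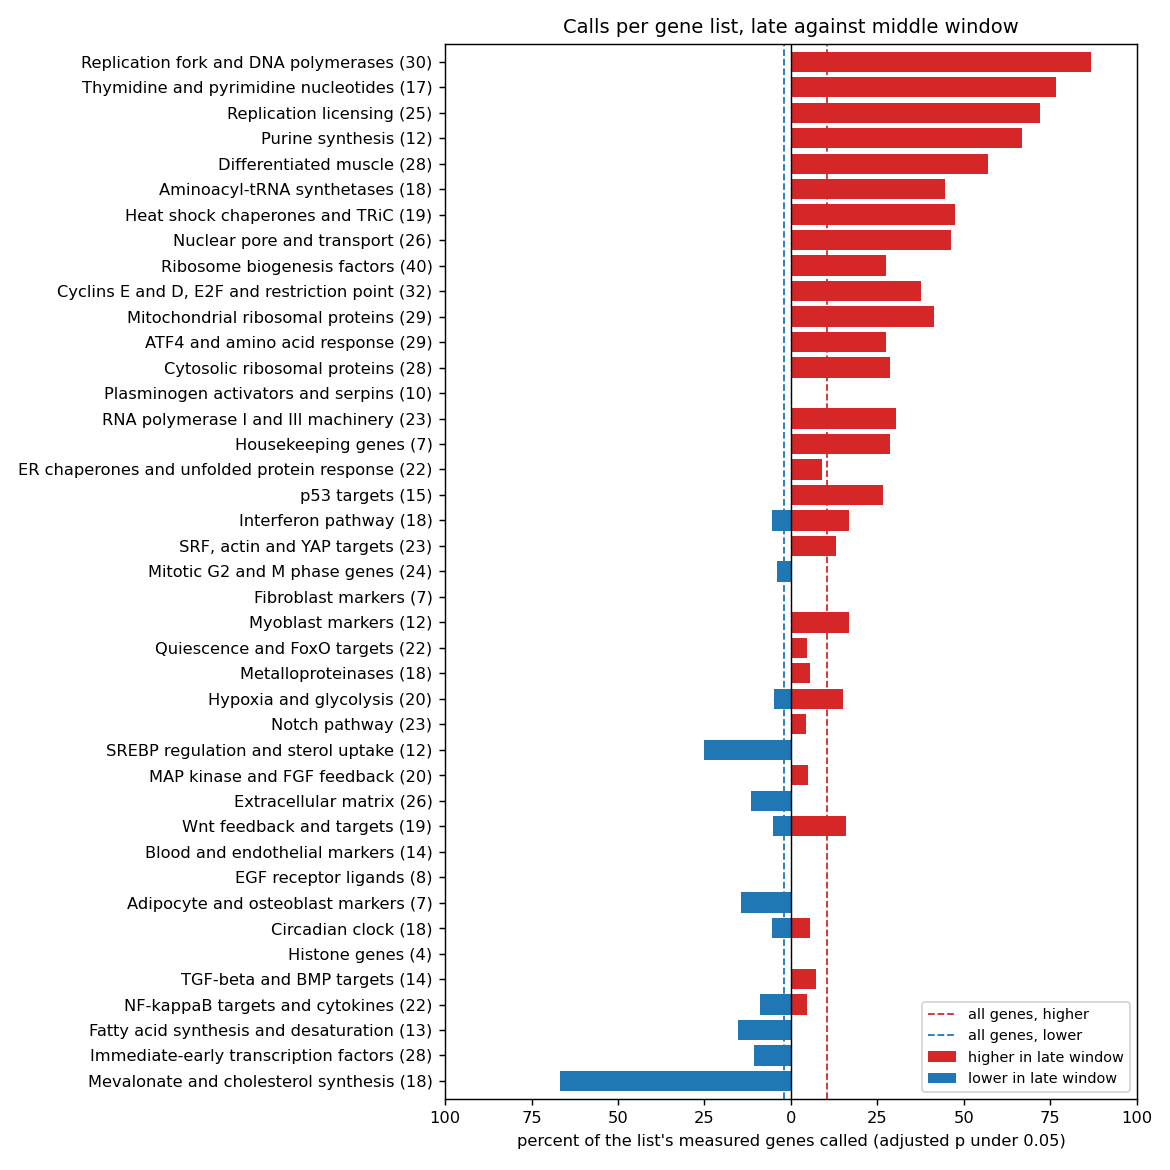
Percent of the measured genes of each of 41 lists called higher (red, to the right) or lower (blue, to the left) in the late window, with the number of measured genes in brackets and the percent of all genes as dashed lines (10.3 and 2.06). Lists are ordered by median difference; replication fork genes are at 86.7% higher and mevalonate and cholesterol synthesis at 66.7% lower.

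Genes of cholesterol synthesis were lower in the late window. The pathway makes cholesterol from acetyl-CoA through mevalonate and squalene, and its genes are switched on by SREBP2 when sterols are scarce. Of 18 measured genes 12 fell and 0 rose, against 2.06% and 10.3% of all genes, with a median of -0.45. The descent ran inside the windows as well. Only 2 of the 18 were higher at 6.0 than at 4.5 h, against 53.6% of all genes. From 2.5 to 4.0 h 5 of the 18 went up, against 54.7% of all genes. Across all settings but the straight line, 10 to 13 of the 18 were called lower. In the same settings 0 were called higher, except for 2 without the 4.5 h array, 1 without the 3.5 h array and 1 with 1 probe set per gene. The median middle minus early difference was -0.22, and 3 of the 12 fell only late.

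Hmgcs1, which makes the HMG-CoA that enters the pathway, went from 1.30, 1.26, 0.962 and 0.718 to 0.638, 0.548, 0.469 and 0.506, after an early mean of 1.76. The fall was -0.94 ± 0.15 (limma adjusted p = 0.00249), and its 5 probe sets ranged from -1.24 to -0.23. Sqle, the squalene epoxidase, fell only late: its ratios were 1.28, 1.25, 1.01 and 0.822 and then 0.688, 0.532, 0.515 and 0.462 (-0.98 ± 0.14, limma adjusted p = 0.00164). The earlier arrays lay between 1.00 and 1.26, and the 4.0 h array was already the lowest of the middle window. Mvd (-0.89 ± 0.13), Idi1 (-0.81 ± 0.14) and Msmo1 (-0.79 ± 0.12), further enzymes of the pathway, fell too. The Msmo1 call was lost with 1 probe set per gene, as its 2 probe sets gave -1.29 and -0.29. Those not called included Fdps (-0.05 ± 0.06) and Ebp (0.22 ± 0.08).

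Of the 12 genes that regulate SREBP or take up sterol, 3 fell and 0 rose. Insig1, which holds SREBP in the endoplasmic reticulum when sterols are plentiful, had ratios of 1.09, 1.35, 0.750 and 0.568 and then 0.513, 0.492, 0.272 and 0.480. The fall was -1.06 ± 0.25 (limma adjusted p = 0.0139), and the call was lost with the 4.5 h array counted as middle (adjusted p = 0.0553). Stard4, a sterol carrier, fell by 0.77 ± 0.17 on the log2 scale and Srebf2 itself by 0.43 ± 0.12. The Stard4 call was lost with the 4.5 h array counted as middle, and the Srebf2 call without the 5.0, 5.5, 6.0, 2.5 or 3.0 h array. Srebf1 was at 0.10 ± 0.08. In fatty acid synthesis 2 of 13 were called lower, Fasn (-0.39 ± 0.11) and Elovl6 (-0.26 ± 0.08), and both were lost without the 5.0, 5.5, 6.0, 2.5, 3.0 or 3.5 h array. Without the 4.0 h array 4 of the 13 were called lower, and after quantile normalization 5.

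The promoter of Hmgcs1 is shown because it was the only one among the called cholesterol genes that held the SRE-1 spelling TCACNCCAC, a sterol regulatory element, within 250 bases (RefSeq, GRCm38.p6, chr13:119690101-119690350, plus strand, match in capitals).
Hmgcs1: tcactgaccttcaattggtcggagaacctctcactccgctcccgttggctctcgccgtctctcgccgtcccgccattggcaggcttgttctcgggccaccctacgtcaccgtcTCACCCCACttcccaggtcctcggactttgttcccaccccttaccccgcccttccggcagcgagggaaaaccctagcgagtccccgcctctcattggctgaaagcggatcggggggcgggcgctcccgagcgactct
This spelling was found in 1 of the 10 called cholesterol genes with a promoter and in 1.27% of all promoters. All 10 held a CCAAT box (CCAAT on either strand, 39.4% of all promoters) and all 10 held the Sp1 spelling GGGCGG (53.4% of all promoters). The Sp1 spelling was also frequent in genes called higher (65.3%) and late starters (68.2%). In the G1 and S phase lists it was in 76.8% of called genes and 72.4% of those not called. Spellings for other factors were searched too, and each was in at most 2 of the 10. No share was counted for cholesterol genes not called.

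**Figure D5:**
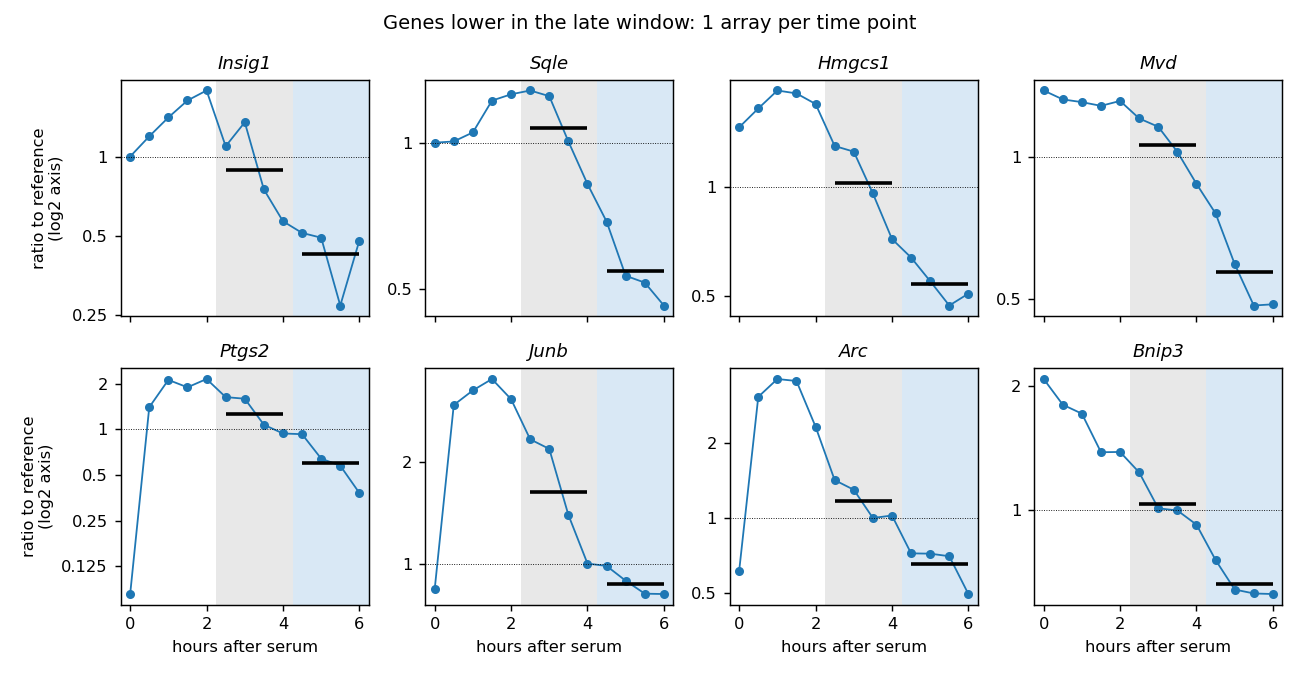
Deposited ratio of 8 genes called lower (log2 axis, a scale of its own in each panel) against hours after serum, 1 array per point; grey marks the middle and blue the late window, and black bars are the geometric means of the windows. The sterol genes in the top row decline through both windows (Sqle from 1.28 at 2.5 h to 0.462 at 6.0 h), and Ptgs2, Junb and Arc decline from peaks before 2.5 h.

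Most genes of the first response to serum had a negative difference, though few were called. Of 28 immediate-early transcription factors 3 fell (10.7%) and 0 rose, against 2.06% and 10.3% of all genes. The median was -0.29, and 25 of the 28 differences were negative, against 7758 of 18193 over all genes. From 4.0 to 4.5 h 14 of the 28 went up, against 60.5% of all genes. With a straight line in time the list's median turned to 0.26 and 0 were called (limma). However, 11 were called lower after quantile normalization, 10 with only the 8 arrays in the fit and 5 without the 4.0 h array. The median middle minus early difference of the list was -0.73. Junb, an AP-1 subunit, had ratios of 2.33, 2.18, 1.39 and 1.00 and then 0.984, 0.890, 0.815 and 0.813 (-0.90 ± 0.20, limma adjusted p = 0.0106). The high values lay at 2.5 and 3.0 h, while the 4.0 and 4.5 h arrays were nearly equal. The call was lost under a variance trend with a robust prior and with the 4.5 h array counted as middle (highest adjusted p 0.13). Arc fell by 0.85 ± 0.16 on the log2 scale and Maff by 0.51 ± 0.15, the latter lost without the 5.0, 5.5, 6.0, 2.5 or 3.0 h array. Fos (-0.45 ± 0.64), Egr1 (-0.53 ± 0.31) and Myc (-0.19 ± 0.16) did not pass, with SEs that take in the spread of the early arrays.

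Ptgs2, the inducible cyclooxygenase, had the largest fall of all called genes. Its ratios were 1.63, 1.59, 1.07 and 0.939 in the middle window and 0.929, 0.642, 0.576 and 0.381 in the late window (-1.08 ± 0.24, limma adjusted p = 0.0107). The 4.0 and 4.5 h arrays were nearly equal, and the 0 h array was at 0.0823. Among 22 cytokine genes and targets of NF-kappaB, 2 were called lower (9.09%, against 2.06% of all genes) and 1 higher (7 lower after quantile normalization). Besides Ptgs2 these were Relb and Cxcl12. Relb was at -0.48 ± 0.13, lost without the 4.5, 5.5, 6.0, 2.5 or 3.0 h array. Cxcl12 was at 0.59 ± 0.11 with a middle dip, and its 3 probe sets ranged from 0.06 to 1.17. Of the EGF receptor ligands 0 of 8 were called (limma, with 1 at an unadjusted p under 0.05). Hbegf was at -0.88 ± 0.45 (limma adjusted p = 0.226), and its SE takes in early arrays that ran from 0.276 to 2.13. Of MAP kinase and FGF feedback genes 1 of 20 was called, Etv4 (0.22 ± 0.06), lost without the 5.5, 6.0, 2.5 or 3.0 h array. Its 2 probe sets gave 0.003 and 0.44.

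In the extracellular matrix list 3 of 26 fell (11.5%, against 2.06% of all genes) and 0 rose. Timp3, an inhibitor of matrix proteases, had ratios of 1.50, 1.71, 1.12 and 1.09 and then 1.01, 0.890, 0.757 and 0.554 (-0.77 ± 0.23, limma adjusted p = 0.0425). The collagen VI chains Col6a1 (-0.24 ± 0.07) and Col6a2 (-0.22 ± 0.05) fell slightly. The call of Timp3 was lost without the 5.0, 5.5, 6.0, 2.5 or 3.0 h array, that of Col6a1 without any but the 4.5 h array, and that of Col6a2 without 5.0, 5.5 or 2.5 h. Bnip3, a hypoxia-inducible gene of mitochondrial autophagy, was at 2.08 at 0 h. It went from 1.24, 1.01, 1.00 and 0.924 to 0.759, 0.644, 0.630 and 0.628 (-0.64 ± 0.11, limma adjusted p = 0.00271). It was the only gene called lower of 20 in the hypoxia and glycolysis list, where 3 were called higher (1 without any of the 5.0, 5.5, 6.0, 2.5, 3.5 or 4.0 h arrays). Ndrg1, whose product is induced by stress, fell by 0.68 ± 0.13 on the log2 scale, lost with 1 probe set per gene.

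Genes that fell only late numbered 17, and 3 of them belonged to the cholesterol list. Besides Sqle and Hsd17b7 (-0.45 ± 0.10), the named ones were the hyaluronan synthase Has1 (-0.54 ± 0.11), Cxxc5 (-0.46 ± 0.12), Pcyt2 of phosphatidylethanolamine synthesis (-0.44 ± 0.08) and Nnmt, the nicotinamide methyltransferase (-0.42 ± 0.09). The 4 probe sets of Hsd17b7 did not all fall, as they ranged from -0.74 to 0.11. Has1 had ratios of 1.14, 1.28, 1.03 and 1.01 and then 0.944, 0.761, 0.724 and 0.659 (limma adjusted p = 0.00857). Its lowest value was at 6.0 h. Cxxc5 lost its call without the 5.0, 5.5, 2.5 or 3.0 h array.

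Other signalling and stress lists held few calls in number, but in some the share was above that of all genes (10.3% higher, 2.06% lower). The share called higher was above it in the Wnt (15.8%), interferon (16.7%) and p53 (26.7%) lists. It was also above it among targets of SRF, actin and YAP, and below it in the other lists of this paragraph. A single lower call put the Wnt (5.26%), interferon (5.56%) and clock (5.56%) lists above 2.06%. Higher and lower calls were 1 and 0 of 23 in the Notch pathway, 3 and 1 of 19 in the Wnt list, 1 and 0 of 14 for TGF-beta and BMP targets, and 3 and 0 of 23 for targets of SRF, actin and YAP. They were 3 and 1 of 18 in the interferon list, 1 and 1 of 18 in the circadian clock, 2 and 0 of 22 for endoplasmic reticulum chaperones, 1 and 0 of 22 for FoxO and quiescence genes, and 1 and 0 of 18 for metalloproteinases. Of 10 serpins and plasminogen activators 0 passed (limma; 4 at an unadjusted p under 0.05). Several of these counts went to 0 when 1 array was left out. The call of the TGF-beta and BMP list, Smad6, was lost without the 5.5, 6.0, 2.5, 3.0, 3.5 or 4.0 h array, after quantile normalization and after centring. Both chaperone calls, Canx and Hsp90b1, were lost without the 5.0, 5.5, 6.0, 2.5, 3.5 or 4.0 h array and after centring. Of the clock genes, Cry2 lost its lower call without 4.5, 5.0, 5.5, 2.5, 3.0 or 4.0 h, and Nr1d2 its higher call without 5.5, 6.0, 2.5, 3.0, 3.5 or 4.0 h and under both scalings. The FoxO count was 0 higher and 1 lower without 6.0 h. The Wnt rises went to 0 without the 5.5, 6.0 or 2.5 h array, and the interferon rises to 1 without 5.5, 6.0, 3.0 or 4.0 h. Kcnk2, a potassium channel gene in none of the lists, was among the 12 largest rises. Its ratios were 0.593, 0.801, 1.04 and 1.00 and then 1.59, 1.41, 1.60 and 1.62 (0.89 ± 0.16, limma adjusted p = 0.00438), after an early mean of 0.400. Actg2, a smooth muscle actin, rose by 0.55 ± 0.10 and Adam12, a metalloproteinase of myoblasts, by 0.62 ± 0.12. Hes6, the gene called in the Notch list, was at 0.23 ± 0.06, and the Notch target Hes1 at 0.41 ± 0.26 did not pass. The Hes6 call was lost without the 5.5, 6.0 or 2.5 h array, and that of Kcnk2 with the 4.5 h array counted as middle. Of 15 p53 targets 4 rose and 0 fell, and 3 of these (Gadd45a, Pmaip1 and Tnfrsf10b) showed the middle dip, against 527 of all 1866 genes called higher. The Tnfrsf10b call was lost without the 4.5, 5.5, 6.0, 2.5, 3.5 or 4.0 h array, after quantile normalization and after centring. That of Pmaip1 was lost with the 4.5 h array counted as middle. Serpinb2, the plasminogen activator inhibitor, had ratios of 0.478, 0.850, 1.00 and 1.16 and then 1.53, 1.61, 1.95 and 1.46. With 0.97 ± 0.63 (limma adjusted p = 0.354) it was not called although its windows did not overlap, its sign turned with a straight line in time (-1.46 ± 0.84), and its early arrays ranged from 0.0206 to 0.332.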

How the data were processed

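RNA from 13 samples had been hybridised to 1 Affymetrix mouse array each. The authors deposited 1 linear ratio per probe set and array. RMA was used per the submitters' processing notes, and how the ratios were formed is not stated in the labels or headers. Of 45101 probe sets, 64 controls were left out, and 34945 of the rest named 1 gene (932 several, 9160 none). Gene values were means of log2 deposited ratios, with no filter on dim probe sets. All 13 arrays, as 4 window groups, entered 1 fit with limma 3.58.1 (lmFit, eBayes; R 4.3.3), Benjamini-Hochberg over all genes. The fit was tested on simulated data with independent noise and a step added to the late arrays, without drift in time. That test therefore cannot speak to a step against a drift. The number of arrays limits the precision. Named genes were the 12 largest rises and falls without overlap of the windows, the 12 rises and 6 falls largest among those moving only late, and up to 5 called (else 2) genes per list; others were added after their values were seen, for their role. Comparison and lists were chosen with earlier results of these data known. Of 860 listed genes, 788 had a value, some under an older symbol. Alternatives were other scalings, variance models, windows, probe sets and thresholds, and each array left out; the restriction to probe sets with a ratio of exactly 1 and the changes inside windows were added after seeing the data.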

Additional observations from a re-analysis of the deposited data

Results flagged for a closer look

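In 302 groups of 4 arrays (the middle and late windows of the named genes), 18 had 1 array far from the other 3 by Dixon's test, and chance flags about 1 in 20 groups. Of the 18, 10 lay in the middle and 8 in the late window, and 5 were at 6.0 h.

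At 6.0 h, Arc was lowest (ratio 0.495, others 0.702 to 0.721), and Gemin2 (1.85, others 1.40 to 1.46), Mrps18b (1.54, others 1.36 to 1.38), Rpl14 (1.49, others 1.18 to 1.22) and Pdgfrb (0.976, others 0.806 to 0.814) were highest. Elsewhere in the late window, Bnip3 was highest at 4.5 h (0.759, others 0.628 to 0.644). Insig1 was lowest at 5.5 h (0.272, others 0.480 to 0.513) and Kcnk2 lowest at 5.0 h (1.41, others 1.59 to 1.62).

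At 4.0 h, the border of the middle window, Gmnn (0.827, others 0.592 to 0.606), E2f7 (0.837, others 0.685 to 0.704) and Dkk3 (1.29, others 1.02 to 1.04) were highest. Pcyt2 (0.924, others 1.02 to 1.03) and Pmaip1 (0.618, others 0.740 to 0.757) were lowest there. At 2.5 h, Mybbp1a (0.949, others at 1.03) and Rcc1 (0.737, others 1.00 to 1.04) were lowest and Nnmt was highest (1.09, others 0.989 to 1.00). At 3.5 h, H1f4 (0.855, others 1.09 to 1.14) and Rpl27 (0.843, others 0.893 to 0.899) were lowest.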

How the results depend on the processing

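The main fit called 2240 genes, 1866 higher and 374 lower, with 366 rising only late. Leaving out 1 array gave 1105 to 2156 calls, 955 to 1750 higher, 150 to 406 lower and 218 to 416 late starters. With the 4.5 h array counted as middle there were 1015 calls, 808 higher, 207 lower and 189 late starters. Testing 45037 probe sets one by one gave 4237, 3411, 826 and 598. An absolute log2 change of at least 1 left 8, 6, 2 and 4, and an adjusted p under 0.01 left 710, 645, 65 and 185. Quantile normalization gave 918 genes lower and centring of arrays 597. A straight line in time left 0, 0, 0 and 0 (limma; 1723 genes at an unadjusted p under 0.05, lowest adjusted p 0.362). Under the line the sign turned for 14 of 151 named genes. Of these 11 were called: Asns (-0.17), Elovl6 (0.028), Fasn (0.097), Mrps18b (-0.081), Nhp2 (-0.059), Phgdh (-0.028), Polr1e (-0.054), Psph (-0.051), Rpl14 (-0.013), Tnnc1 (-0.16) and Tnnt3 (-0.11). The other 3 were not called: Serpinb2 (0.97 without and -1.46 with the line), Serpinb9 (-0.20 and 0.19) and Dpt (-0.14 and 0.0043). The cause of these moves was not tested; the line shares its time course with the windows by construction. Of 141 called named genes, 70 passed in every setting but the line, and 45 lost the call when 1 array was left out. Counting the 4.5 h array as middle ended 51 of the 141 calls, 1 probe set per gene 27, centring of arrays 17 and quantile normalization 7. No paired analysis was possible because the labels give 1 array per time point and no replicate numbers.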
